A study of Mus musculus with 7 samples.

Results

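The Tmprss11 genes encode type II transmembrane serine proteases, enzymes held in the cell membrane near one end with their catalytic domain outside the cell. The 8 genes described here are Tmprss11a, Tmprss11b, Tmprss11d, Tmprss11e, Tmprss11f and Tmprss11g, which lie side by side on mouse chromosome 5, and the related Tmprss2 and Tmprss4 on chromosomes 16 and 9. They were chosen by name and selected on the day 6 against day 0 change of these same arrays, which was already known. All 8 had a probe set that names them alone, 1 each, among 19937 genes measured in this way. The listing used the change between days, so that change is described here without a test.

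Proteases of this type are made as inactive precursors and are switched on by a cut before the catalytic domain. They act at the surface of lining epithelia, where they cut neighbouring proteases, receptors and ion channels, and Kunitz-type inhibitors on the same cells hold them in check. In squamous epithelia such as epidermis they are known for roles in barrier formation and in activating the epithelial sodium channel.

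The 7 arrays were of the Affymetrix type Mouse Gene 1.0 ST, hybridised with total RNA, and every value below is a log2 RMA value. Iqgap1 knockout mice gave 2 arrays on day 6, wild-type mice 2 on day 6, knockouts 2 on day 0, and the wild type 1 on day 0. All mice had a mixed C57BL/6 and 129 background, and topical 4OHT (4-hydroxytamoxifen, a ligand of tamoxifen-dependent proteins) is listed as the agent for each array, those of day 0 included. The labels used here give mouse tissue as the source, and no age, inducible transgene or promoter, and the knockout is not described as limited to a cell type.

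Iqgap1, a cytoskeletal scaffold protein gene, had 8.58 and 8.67 in day 6 knockouts and 10.11 and 10.59 in day 6 wild types, against 9.02 and 8.99 in day 0 knockouts and 9.94 in the day 0 wild type, so that every knockout array was lower. Whether replicates came from separate mice is not stated, and the spread behind each p-value may therefore be a technical one. Replicate 1 of wild type on each day carried Xist signal. On these day 0 and day 6 arrays the Y-linked Eif2s3y was at 3.72 and 3.72, Uty at 3.50 and 3.71, and Kdm5d at 4.25 and 4.08. The arrays without Xist signal had 8.74 to 9.61, 7.28 to 7.97 and 7.14 to 7.48. This is the pattern of female tissue on the former and male tissue on the latter. At day 0 the genotypes therefore differ in sex as well. The wild-type day 0 array also had high hair follicle and melanocyte markers (means of 11.24 and 10.63, against 5.97 to 7.68 and 5.36 to 6.45 on the other 6 arrays). Markers of epidermal keratinocytes (9 of 10 measured) lay between 9.19 and 12.89 on all arrays. Their mean was 10.93 and 11.14 on the day 0 and day 6 arrays with Xist signal, against 11.64 to 11.92 on the others. On the wild-type day 0 array the fibroblast and endothelium marker means, 10.22 and 7.93, were also lower than in the day 0 knockouts (12.01 and 12.09, and 9.33 and 9.36). Of 4 mucosal markers, Krt4, Krt13 and Krt76 lay between 4.17 and 5.33, and Crnn at 12.06 on the wild-type day 0 array and 4.34 to 7.35 elsewhere. At day 6, 5 of 5 adipocyte, 4 of 5 skeletal muscle and 3 of 5 sebaceous gland markers were called lower, against 5.62% of all genes. Of the 9 keratinocyte markers, 2 were called higher, against 5.85% of all genes: Krt14 at 0.72 and Dsg3 at 0.96 (limma adjusted p = 0.0276 and 0.00803). The RNA is that of a whole tissue, in which more cells of a type and more RNA per cell cannot be told apart. The part of these markers in the values below was not tested. As a guide to the floor, 9 genes of tissues that should be absent (such as Alb and Ins2) lay between 3.24 and 6.10. The Iqgap1 values of the knockouts, 8.58 to 9.02, lay above this range, and the reason was not tested.

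Tmprss11b, whose human counterpart is expressed in squamous epithelia, had 11.21 and 10.73 in day 6 knockouts and 11.24 and 11.12 in day 6 wild types, against 3.94 and 4.05 in day 0 knockouts and 4.24 in the day 0 wild type. Every day 6 array stood far above every day 0 array, and the 4 day 6 arrays lay close together. The fitted difference over both genotypes was 6.96 ± 0.15 (SE, 4 against 3 arrays), the first in rank of 19937 genes. The day 0 values lay within the floor range, so this difference has no exact fold.

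Tmprss11g followed with 10.40 and 9.99 in day 6 knockouts and 9.82 and 9.63 in day 6 wild types, against 4.80 and 5.45 in day 0 knockouts and 5.61 in the day 0 wild type. The groups of the 2 days were again far apart, with a difference of 4.69 ± 0.26 (SE) and rank 23. Tmprss11d, whose human counterpart is the airway trypsin-like protease that can activate the receptor PAR2, had 7.89 and 6.98 in day 6 knockouts and 8.03 and 6.90 in day 6 wild types, against 3.94 and 3.98 in day 0 knockouts and 4.19 in the day 0 wild type. Within each genotype at day 6, replicate 1 of Tmprss11d was about 1 log2 unit above replicate 2, a wider spread than in Tmprss11b. Tmprss11f, below, also had the higher value in replicate 1. The mean of 5 sebaceous gland markers was 4.98 and 8.27 in day 6 knockouts and 5.26 and 8.19 in day 6 wild types, lower in replicate 1 of each genotype. Keratinocyte, skeletal muscle, fibroblast, endothelium and macrophage marker means were lower there too, by less. The hair follicle mean was higher there, and the other cell type lists differed in direction between genotypes. The part of these markers in the values of Tmprss11d and Tmprss11f was not tested. Tmprss11a had 7.46 and 7.24 in day 6 knockouts and 7.02 and 7.69 in day 6 wild types, against 4.07 and 4.06 in day 0 knockouts and 4.68 in the day 0 wild type. The differences were 3.39 ± 0.32 for Tmprss11d and 3.04 ± 0.21 for Tmprss11a (SE), with ranks 58 and 73. The day 0 values of Tmprss11g, Tmprss11d and Tmprss11a also lay within the floor range.

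Tmprss11e, known as DESC1 and described in humans as a squamous epithelial protease, had 10.96 and 10.97 in day 6 knockouts and 10.79 and 10.80 in day 6 wild types, against 7.29 and 7.22 in day 0 knockouts and 9.99 in the day 0 wild type. All day 6 arrays were above all day 0 arrays, but the wild-type day 0 array was near them and the 2 knockout day 0 arrays were not. The difference was 3.71 ± 0.15 within knockout and 0.81 ± 0.18 within wild type (SE), against 2.55 ± 0.55 (SE) over both genotypes.

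Tmprss11f, which mouse studies tie to the epidermal barrier, was the member of the cluster that did not follow. It had 8.31 and 7.73 in day 6 knockouts and 10.13 and 7.10 in day 6 wild types, against 9.26 and 9.43 in day 0 knockouts and 10.66 in the day 0 wild type. Among the 5 arrays without Xist signal the 3 of day 6 all lay under the 2 of day 0, and the 2 arrays with Xist signal were the highest of all 7. Over all arrays the days overlapped, with a difference of -1.61 ± 0.67 (SE), and -1.06 without wild-type day 6 replicate 2. Both arrays with Xist signal were above the other 5 for 1 of the 8 genes, this one, and for 17.6% of all genes. The hair follicle markers averaged 7.68 on wild-type replicate 1 of day 6, against 5.97 to 6.26 on the other 3 arrays of that day.

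Tmprss4, a protease reported to activate the epithelial sodium channel, had 8.90 and 9.09 in day 6 knockouts and 9.71 and 9.19 in day 6 wild types, against 7.77 and 8.51 in day 0 knockouts and 7.28 in the day 0 wild type. The day 6 arrays were all above the day 0 arrays, by a margin smaller than the gap between the 2 knockout arrays of day 0, and the difference was 1.38 ± 0.33 (SE), and 0.85 without the wild-type day 0 array. Tmprss2, best known from prostate and airway, had 4.72 and 4.84 in day 6 knockouts and 6.03 and 6.30 in day 6 wild types, against 4.72 and 4.59 in day 0 knockouts and 7.55 in the day 0 wild type. Its days overlapped (-0.48 ± 0.31, SE, and 0.12 without the wild-type day 0 array). The knockout values of both days and that of wild-type replicate 1 of day 6 lay within the floor range. In all, the day 6 arrays lay above the day 0 arrays for 6 of the 8 genes, against 11.9% of all genes, a count that the listing itself fixed.

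**Figure D1:**
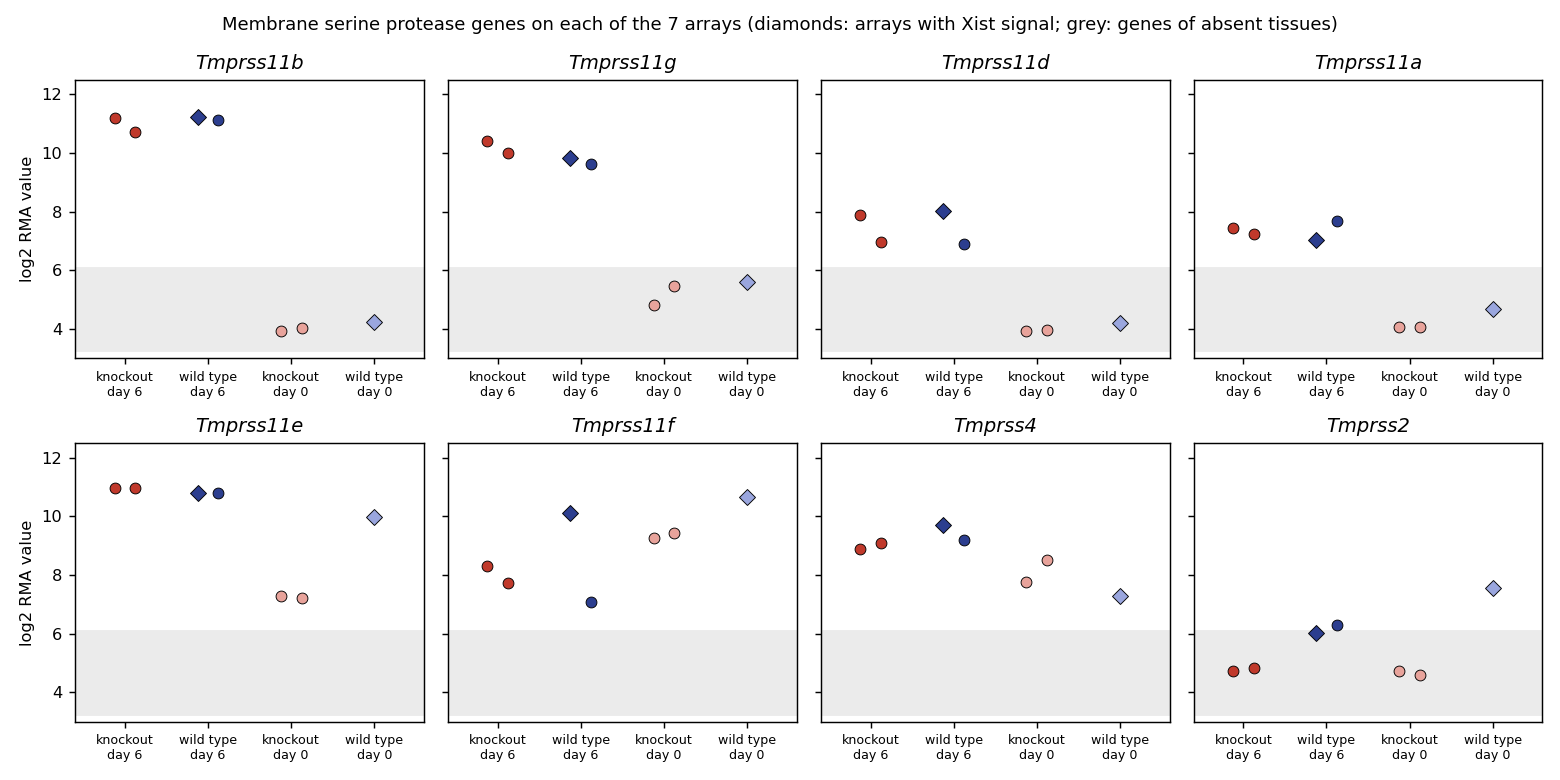
Each panel plots the log2 RMA value of 1 gene on each of the 7 arrays, by group, with diamonds for arrays with Xist signal and grey for the range of 9 genes of absent tissues (3.24 to 6.10). Tmprss11b, Tmprss11g, Tmprss11d and Tmprss11a leave the grey range at day 6 only, and Tmprss11e is high on the wild-type day 0 array too. Tmprss2 is above 6 on wild-type arrays only, with replicate 1 of day 6 (6.03) still in the grey range.

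The 6 Tmprss11 members follow one another in RefSeq gene order (GRCm38.p6) as Tmprss11d, Tmprss11a, Tmprss11g, Tmprss11f, Tmprss11b and Tmprss11e, with no other measured gene between them. This order was not part of the listing, but the change of each member was known to it. The contrast of members with unlisted genes, Tmprss11c of the same family included, was therefore largely fixed by the listing. Tmprss11f, with the negative difference, stands between Tmprss11g and Tmprss11b, which had the highest differences of the cluster. The next gene beyond Tmprss11d is Tmprss11c, of the same family, which had 4.17 and 4.20 in day 6 knockouts and 4.12 and 4.21 in day 6 wild types, against 3.89 and 4.03 in day 0 knockouts and 4.36 in the day 0 wild type. It stayed within the floor range on every array, with a difference of 0.06 ± 0.14 (SE, limma adjusted p = 0.843). Of the 10 nearest measured genes outside the members, 5 on each side, 1 was called with day, against 11.5% of all genes. That gene was Stap1, a signalling adaptor of blood cells, at -0.997 ± 0.12 (SE, adjusted p = 0.00552). Its values, 4.03 to 5.38, lay within the floor range. The other 9 (Cenpc1, Uba6, Gnrhr, Tmprss11c, Ythdc1, Ugt2b34, Ugt2b1, Ugt2b35 and Ugt2b36) lay between -0.21 and 0.16 and were not called. Among these, Uba6 (8.59 to 9.32) and Ythdc1 (9.09 to 9.56) were above the floor range on all arrays, and Cenpc1 (5.76 to 6.64) reached into it. Gnrhr, Ugt2b34, Ugt2b1 and Ugt2b36 lay within it like Tmprss11c, and Ugt2b35, at up to 3.28, within or under it. For genes at the floor, no change cannot be told apart from no signal.

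**Figure D2:**
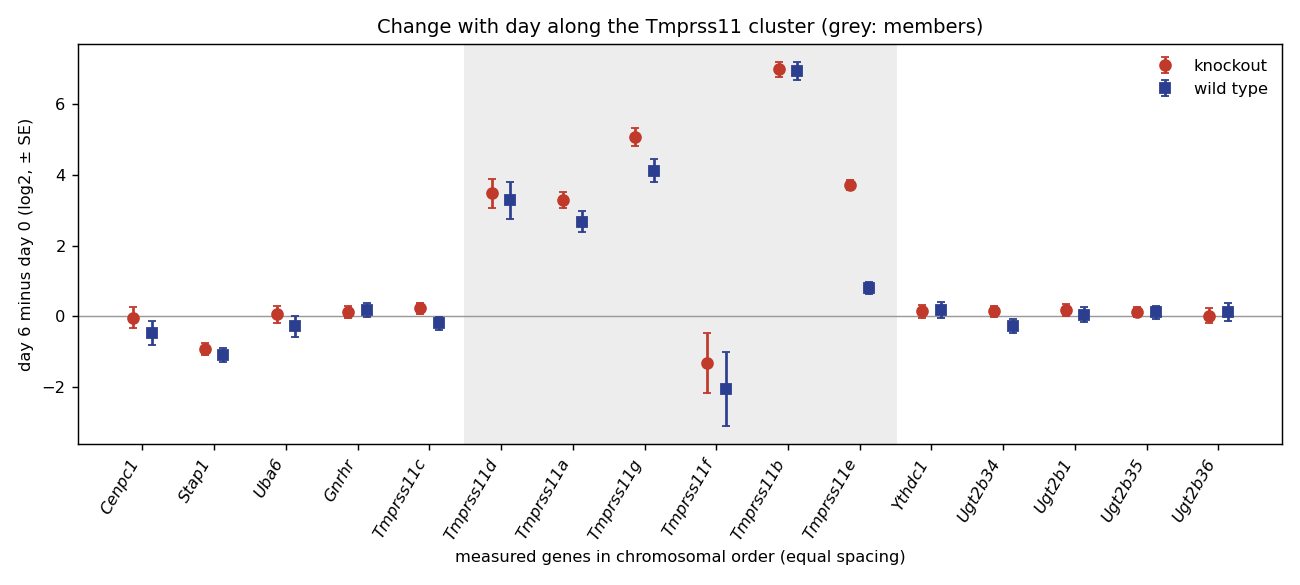
Day 6 minus day 0 (log2, points with SE bars) in knockout and wild type for 16 measured genes in chromosomal order, evenly spaced, with the 6 members on grey. The members, listed with their change known, span -2.04 to 6.97 within a genotype, while all neighbours but Stap1 stay near 0. Most neighbours lie at the floor, and the wild-type value rests on 1 day 0 array.

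The promoters of the cluster are shown because neighbouring copies with similar values can be set beside one that differs. RefSeq promoters (GRCm38.p6) were found for 6 of the 8 genes, all but Tmprss11e and Tmprss4. The 250 bases before the annotated start are given for Tmprss11b (chr5:86676299-86676548), Tmprss11g (chr5:86518601-86518850), Tmprss11a (chr5:86468991-86469240), Tmprss11d (chr5:86373388-86373637) and Tmprss11f (chr5:86632425-86632674), all on the minus strand and written 5′ to 3′. Capitals mark AACNNGTT, the outer letters of the grainyhead-like consensus AACCGGTT, which was chosen after the sequences were read.
Tmprss11b: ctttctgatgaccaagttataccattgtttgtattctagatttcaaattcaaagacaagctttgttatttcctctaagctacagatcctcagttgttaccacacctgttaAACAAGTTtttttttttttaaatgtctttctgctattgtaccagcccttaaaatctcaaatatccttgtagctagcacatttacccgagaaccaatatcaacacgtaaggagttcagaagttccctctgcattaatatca
Tmprss11g: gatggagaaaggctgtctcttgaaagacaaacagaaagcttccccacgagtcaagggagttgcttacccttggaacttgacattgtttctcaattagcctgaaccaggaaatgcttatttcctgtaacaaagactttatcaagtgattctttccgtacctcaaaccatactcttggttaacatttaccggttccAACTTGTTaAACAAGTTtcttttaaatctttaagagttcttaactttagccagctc
Tmprss11a: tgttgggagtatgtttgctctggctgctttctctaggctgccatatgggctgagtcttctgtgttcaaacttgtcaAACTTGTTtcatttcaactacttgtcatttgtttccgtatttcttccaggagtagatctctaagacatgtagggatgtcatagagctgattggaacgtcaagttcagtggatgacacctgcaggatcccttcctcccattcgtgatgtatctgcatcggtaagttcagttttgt
Tmprss11d: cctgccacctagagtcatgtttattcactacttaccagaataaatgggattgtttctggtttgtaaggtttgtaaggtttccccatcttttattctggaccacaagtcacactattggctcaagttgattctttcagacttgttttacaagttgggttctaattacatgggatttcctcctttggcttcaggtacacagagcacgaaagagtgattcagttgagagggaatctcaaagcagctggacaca
Tmprss11f: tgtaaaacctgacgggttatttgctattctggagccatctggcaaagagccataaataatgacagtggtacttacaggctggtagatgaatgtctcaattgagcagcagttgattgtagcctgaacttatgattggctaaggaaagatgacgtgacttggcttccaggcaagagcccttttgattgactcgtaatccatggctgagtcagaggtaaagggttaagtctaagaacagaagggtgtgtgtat

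AACNNGTT, which reads the same on both strands, occurred in Tmprss11b, Tmprss11a and, at 2 places, Tmprss11g, and in 3.64% of 32851 RefSeq promoters over the same 250 bases. Tmprss11d, Tmprss11f, Tmprss2 and Tmprss11c had no such letters in this window. The full consensus AACCGGTT had no match in any of these promoters and occurred in 0.116% of all promoters. The longest run shared by any pair of these promoters was tgttaaacaagttt, of 14 bases, in Tmprss11g and Tmprss11b. It holds AACAAGTT and was found in 2 of the 32851 promoters, these 2. The run was picked from these same promoters for its length, so this count is no test of rarity. The AP-1 letters TGANTCA, searched on both strands and without overlap with AACNNGTT, occurred in Tmprss11d (as TGATTCA) and Tmprss11f (as TGAGTCA), and in 6.75% of all promoters. TTGCNNAA and TATAAA, searched likewise, had no match in the promoters of the 6 genes and occurred in 9.56% and 12.4% of all promoters. Letters found in a window describe the sequence and show no binding.

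Knockout was then set against wild type, a comparison that did not choose the genes. At day 6, 0 of the 8 genes passed limma's test at an adjusted p under 0.05, as did 0 of all genes (0%). Iqgap1 itself was thus not called, at 8.63 ± 0.06 in knockout and 10.35 ± 0.34 in wild type (SD, n = 2 each). With so few arrays, a gene that is not called is not shown to be alike in the genotypes. Unadjusted, 1 of the 8 had a p under 0.05, against 5.93% of all genes. That gene was Tmprss2, with 4.78 ± 0.09 in knockout and 6.16 ± 0.19 in wild type (SD, n = 2 each) and a difference of -1.39 ± 0.17 (SE, limma adjusted p = 0.503). For Tmprss2 the knockout arrays and wild-type replicate 1 lay within the floor range. Both knockout arrays lay under both wild-type arrays for Tmprss2 and Tmprss4, against 15.7% of all genes, and above them for Tmprss11e and Tmprss11g, against 15.9%. Tmprss11g had 10.20 ± 0.30 in knockout and 9.73 ± 0.13 in wild type (SD, n = 2 each), a difference of 0.47 ± 0.26 (SE, adjusted p = 0.821). The other 6 genes differed by -0.59 to 0.17, with adjusted p of 0.833 or more. Tmprss11b, the gene with the highest change with day, differed by -0.21 ± 0.20 (SE, adjusted p = 0.891).

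Over both days, in a fit that also holds day, 0 of the 8 genes and 0 of all genes (0%) passed, with 1 of the 8 and 18.7% of all genes at an unadjusted p under 0.05. Tmprss2 had the smallest p: all 4 knockout arrays, 4.59 to 4.84 and within the floor range, lay under all 3 wild-type arrays, 6.03 to 7.55. It showed a separation in this direction, as did 7.46% of all genes. Its difference was -1.99 ± 0.31 (SE, limma adjusted p = 0.239), and -1.39 (adjusted p = 0.503) without the wild-type day 0 array. Tmprss11e was next, at -0.99 ± 0.55 (SE, adjusted p = 0.358), and 0.17 (adjusted p = 0.869) without the wild-type day 0 array. Without wild-type replicate 2 of day 6, where all remaining wild-type arrays carry Xist signal, Tmprss11f came to pass at -1.71 (adjusted p = 0.0409), and 836 genes passed in all.

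At day 0, 2 of the 8 genes were called, against 14.4% of all genes, and both were lower in knockout (5.86% of all genes were called lower and 8.53% higher). Tmprss11e had 7.26 ± 0.05 in knockout (SD, n = 2) and 9.99 in the single wild-type array, a difference of -2.73 ± 0.18 (SE, limma adjusted p = 0.000471). Tmprss2 had 4.66 ± 0.10 in knockout (SD, n = 2) and 7.55 in wild type, a difference of -2.90 ± 0.21 (SE, adjusted p = 0.000729). The other 6 genes lay between -1.32 and 0.86 and were not called. The spread of the single wild-type array is taken from the other groups. Genotype at day 0 cannot be told apart from sex, as read from the Xist signal of that array, or from its higher hair follicle and melanocyte markers. Nor can it be told apart from its lower keratinocyte, fibroblast and endothelium markers. Both calls held in each of 13 alternatives, but each of these rests on the same wild-type array. With Xist signal as a term, Tmprss11f stood at 1.72 (adjusted p = 0.106), against -1.32 without it. In this fit the term rests only on the gap between the 2 wild-type day 6 arrays. These also differed in hair follicle (7.68 and 6.02) and sebaceous gland marker means (5.26 and 8.19), from which Xist signal cannot be told apart. Without wild-type day 6 replicate 1 or 2, the difference of Tmprss11f stayed at -1.32, as no day 6 array enters it. It was called only then, with the gap between those 2 arrays (10.13 and 7.10) no longer in the spread.

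The day change differed between genotypes for the same 2 genes, against 3.1% of all genes (1.76% with the higher change in knockout, as in both of these, and 1.35% with the lower). For Tmprss11e the knockout change exceeded the wild-type change by 2.90 ± 0.23 (SE, limma adjusted p = 0.00212), and adjusted p lay between 0.000433 and 0.0186 over 13 alternatives. For Tmprss2 the change was 0.12 ± 0.17 in knockout and -1.39 ± 0.21 in wild type (SE), and the difference between them was 1.51 ± 0.27 (SE, adjusted p = 0.0360). The Tmprss2 call was lost in 6 of 13 alternatives, among them leaving out any 1 knockout array (adjusted p = 0.106 and 0.127 without replicate 1 or 2 of day 0, and 0.122 and 0.104 without replicate 1 or 2 of day 6). Without wild-type day 6 replicate 1, Tmprss11f passed as well, at 2.24, with the gap between the 2 wild-type day 6 arrays no longer in the spread. For Tmprss11b the difference was 0.04 ± 0.32 (SE, adjusted p = 0.974), so its change with day was 6.97 ± 0.20 in knockout and 6.94 ± 0.25 in wild type (SE). These values share the wild-type day 0 array with the day 0 comparison.

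**Figure D3:**
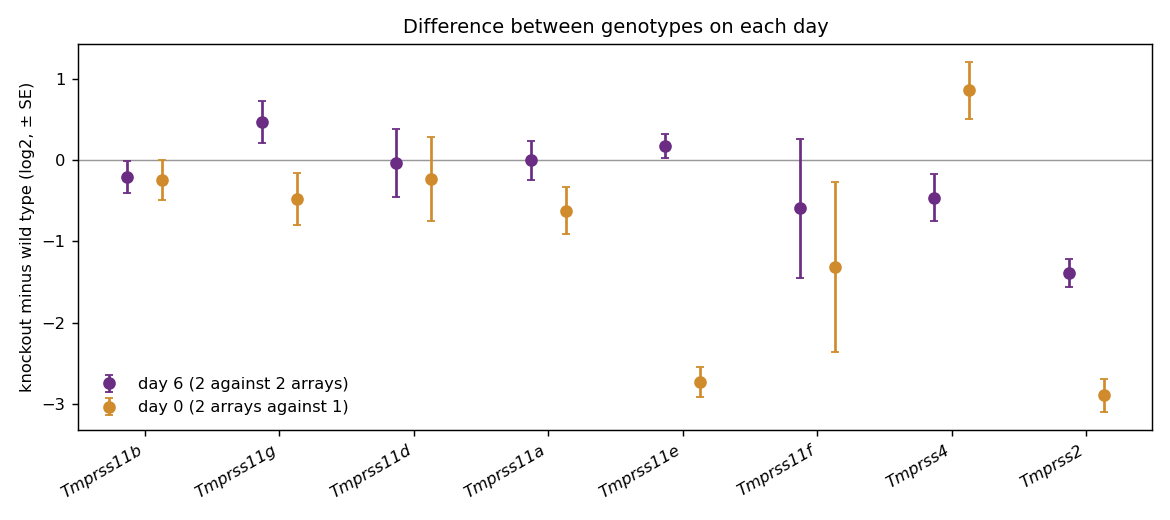
Knockout minus wild type (log2, points with SE bars) for the 8 genes at day 6, with 2 arrays against 2, and at day 0, with 2 arrays against 1. Tmprss2 lies under 0 on both days (-1.39 and -2.90), and Tmprss11e at 0.17 on day 6 and -2.73 on day 0.

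**Figure D4:**
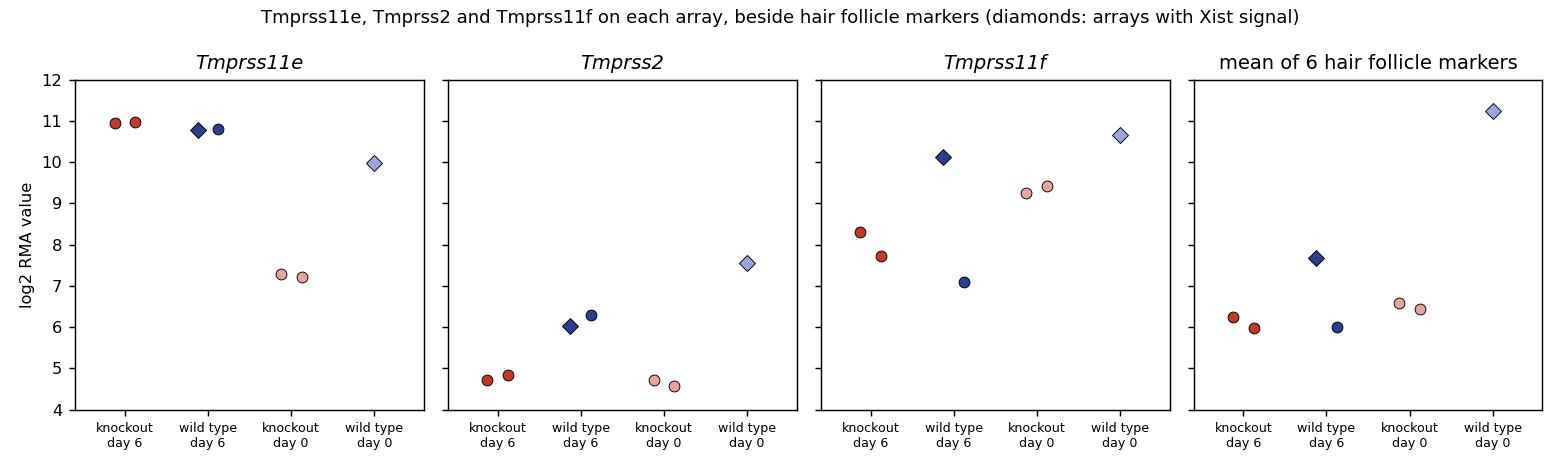
Log2 RMA values of Tmprss11e, Tmprss2 and Tmprss11f on each array, and the mean of 6 hair follicle markers (right), by group, with diamonds for the 2 arrays with Xist signal. The wild-type day 0 array is the highest of the day for all 3 genes and has the highest marker mean (11.24), while Tmprss11e at day 6 is alike on arrays with and without Xist signal (10.79 and 10.80 in wild type).

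Related genes that are no members were taken from 4 lists of other membrane proteases, inhibitors and targets. These lists were chosen with earlier results of these data known. Their counts and p-values, here and in later sections, are therefore descriptive and no independent test. Of 30 measured genes, 8 were called higher at day 6 and 0 lower, against 5.85% and 5.62% of all genes, with a median of 0.22 (0.06 over all genes). Of 11 other type II transmembrane serine proteases, 1 was called higher: Tmprss13, at 0.79 ± 0.16 (SE, limma adjusted p = 0.0249). It had 10.57 and 10.82 in day 6 knockouts and 10.18 and 10.60 in day 6 wild types, against 9.74 and 10.002 in day 0 knockouts and 9.65 in the day 0 wild type, and it no longer passed without any 1 of the 4 knockout arrays (adjusted p = 0.0596 to 0.104). St14, which encodes matriptase, the main protease of this kind in epidermis, had a difference of -0.18 ± 0.16 (SE, adjusted p = 0.560). Its values were 10.43 and 10.64 in day 6 knockouts and 10.54 and 10.48 in day 6 wild types, against 10.40 and 10.55 in day 0 knockouts and 11.04 in the day 0 wild type. Tmprss9, Tmprss5 and Corin, next by p, were not called, and the median of this list was 0.03.

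Among 5 other epithelial serine proteases, 2 were called higher and 0 lower (median 0.23). Prss27, or marapsin, a protease of squamous epithelia, had 10.04 and 10.58 in day 6 knockouts and 10.07 and 9.90 in day 6 wild types, against 7.77 and 8.68 in day 0 knockouts and 7.01 in the day 0 wild type. All day 6 arrays were above all day 0 arrays, with a difference of 2.44 ± 0.30 (SE, limma adjusted p = 0.00543). Prss22, an epithelial tryptase-like protease, was called at 1.29 ± 0.29 (SE, adjusted p = 0.0374), a call lost in 8 of 15 alternatives, with adjusted p up to 0.132 without knockout day 0 replicate 1. Prss8, or prostasin, the membrane-anchored partner of matriptase, had a difference of 0.09 ± 0.16 (SE, adjusted p = 0.791), and Prss21 and Tpsg1 were not called either. Of the 4 measured inhibitors, 0 were called in either direction, and 1 had an unadjusted p under 0.05. The Kunitz-type inhibitor genes Spint1 and Spint2 differed by 0.03 ± 0.16 and 0.41 ± 0.15 (SE, adjusted p = 0.943 and 0.132). Spink5, the inhibitor mutated in Netherton syndrome in humans, was at 0.28 ± 0.21 (SE) and Serpina5 at 0.00273 ± 0.15 (SE).

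Of 10 measured substrates and targets, 5 were called higher and 0 lower, with a median of 0.83. Scnn1g and Scnn1b, which encode the gamma and beta subunits of the epithelial sodium channel, had the highest differences. Scnn1g had 10.66 and 10.53 in day 6 knockouts and 10.50 and 10.53 in day 6 wild types, against 6.74 and 7.22 in day 0 knockouts and 7.77 in the day 0 wild type. Scnn1b had 10.23 and 10.22 in day 6 knockouts and 10.25 and 10.08 in day 6 wild types, against 6.63 and 6.77 in day 0 knockouts and 7.96 in the day 0 wild type. For both genes the 4 day 6 arrays lay within 0.2 log2 units of one another and above all day 0 arrays. The differences were 3.26 ± 0.22 (limma adjusted p = 0.000820) and 3.0005 ± 0.27 (SE, adjusted p = 0.00214). Scnn1a, the alpha subunit, was at 0.83 ± 0.23 (SE, adjusted p = 0.0647) and did not pass.

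Plau, the urokinase gene, was called at 1.92 ± 0.44 (SE, limma adjusted p = 0.0384), and its value was 1.13 (adjusted p = 0.0566) without the wild-type day 0 array. Hgfac, which encodes the activator of hepatocyte growth factor, was called at 0.82 ± 0.12 (SE, adjusted p = 0.00909), with values of 4.80 to 5.77 that all lay within the floor range. Hgf itself was called at 0.75 ± 0.18 (SE, adjusted p = 0.0428). Its values, 4.96 to 6.17, lay within the floor range except on wild-type replicate 1 of day 6. Calls for Plau and Hgf were each lost in 11 of 15 alternatives, and that for Hgfac without knockout day 0 replicate 1 (adjusted p = 0.0504). Scnn1b, Scnn1g and Prss27 passed in all 15. Plaur, Met, Mst1 and Mst1r did not pass. The count of 8 was 3 without knockout day 0 replicate 1 and 5 without the arrays with Xist signal.

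**Figure D5:**
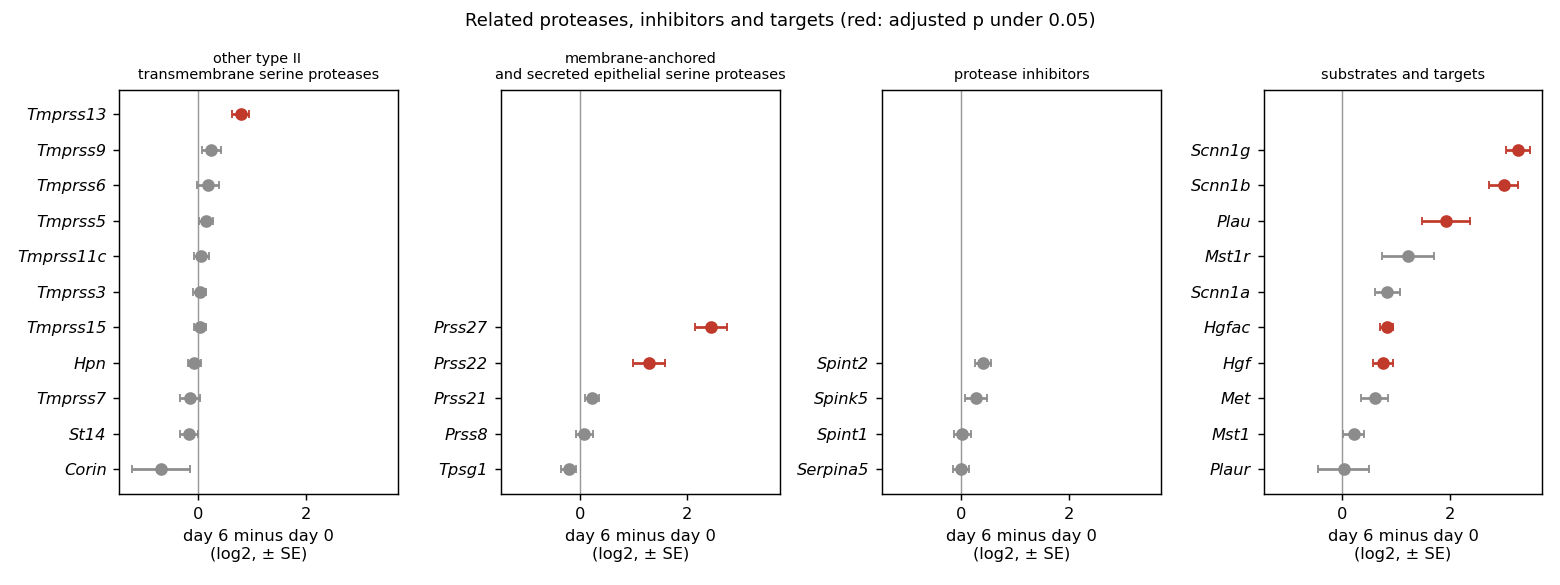
Day 6 minus day 0 over both genotypes (log2, points with SE bars) for 30 genes in 4 lists, with genes at an adjusted p under 0.05 in red. The lists were chosen with earlier results of these data known. Scnn1g (3.26), Scnn1b (3.0005) and Prss27 (2.44) stand apart on the right, while the inhibitors lie between 0.00273 and 0.41.

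Genes with the most similar profiles were found by the root mean square difference over the 7 arrays, each gene centred on its own mean, as a description that rests largely on the change with day. For Tmprss11b they were Csta3, Defb14, Lce3a, Lce3e and Stfa2 (0.52 to 0.73 log2 units), genes of cystatins, a defensin and the cornified envelope. For Tmprss11g they were Psca, Sprr2f and Sprr2e (0.32 to 0.37), for Tmprss11a Sprr2k, Tmem163 and Scnn1g (0.21 to 0.25), and for Tmprss11d Dynap, Prelid2 and Mgarp (0.28 to 0.35). Tmprss11e, which was high on the wild-type day 0 array, was nearest to the mitosis genes Aurkb, Knstrn and Ccnb2 (0.25 to 0.30). Tmprss4 was nearest to Pglyrp1, a gene of antibacterial defence, Sdcbp2 and Aadacl2 (0.13 to 0.19). Tmprss11f (Pfn2, Alcam and Ret, 0.50 to 0.52) and Tmprss2 (Them4, Cfap300 and Ccdc68, 0.44 to 0.49) had their nearest genes at about the distance of those of Tmprss11b. Within the family, Tmprss11a and Tmprss11d were each other's nearest member (0.55), with 54 and 16 other genes nearer.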

How the data were processed

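RNA of 7 samples was measured on arrays. Per the submitters' processing notes the authors used RMA and R 2.11.1. Their deposited table holds log2 values, judging by a range of 2.37 to 13.38. RMA settings, batches and the genome build are not given in the sources used here. RMA compresses low values, so changes from the floor are understated, and the number of arrays limits the precision. Each gene was taken from the probe set naming it alone with the highest mean, per the platform's gene table, and 19937 of 34760 probe sets were used. limma 3.58.1 (lmFit and eBayes, under R 4.3.3) gave two-sided p-values, adjusted by Benjamini-Hochberg over the 19937 genes and called under 0.05. Day and genotype over all arrays came from an additive fit (4 residual degrees of freedom), the other comparisons from 1 fit of 4 group means (3). SE are limma's moderated errors. The test was checked on simulated data.

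The members, lists and alternatives were chosen with earlier results of these data known. Named are the 8 members, every listed gene past the threshold in a comparison, up to 4 others per list by p, the cluster neighbours and the nearest profiles (3 genes, 5 for Tmprss11b), without predicted genes and small RNAs. Some listed genes were not analysed here. Alternatives left out each array, added the replicate number or Xist signal as a term, recentred arrays, filtered genes with a mean under 5, averaged probe sets, changed the variance model or used all probe sets. For the difference in day change, Xist signal as a term gave the same result as leaving out wild-type day 6 replicate 2, so these are not separate alternatives.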

Additional observations from a re-analysis of the deposited data

Results flagged for a closer look

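The day change of Tmprss11e differed between genotypes by a tested 2.90 on the log2 scale (knockout minus wild type, limma adjusted p = 0.00212). That of Tmprss2 differed by 1.51 (adjusted p = 0.0360). Both rest on the single wild-type day 0 array, on which these genes were at 9.99 and 7.55. Among the 4 day 6 arrays, wild-type Scnn1b of 10.08 stood off from the other 3 (10.22 to 10.25), by 0.855 of the whole range. Chance sets about 1 in 20 such groups apart, and the 8 members and the 8 related genes called with day were all looked at in this way.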

How the results depend on the processing

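Over 15 alternatives, 0 of the 8 genes were called for genotype at day 6, and over 13 alternatives Tmprss11e and Tmprss2 were both called at day 0. The main fit did not call Iqgap1 at day 6 either. Leaving out 1 array gave 0 to 1 called genes for genotype over both days, 1 to 3 for the difference in day change, and 3 to 6 of the related genes called higher at day 6. The difference in day change was called for 1 gene, not 2, with arrays centred on their medians and with all probe sets. The related genes called higher numbered 5, not 8, without the arrays with Xist signal and with all probe sets. Of the cluster neighbours 0, not 1, were called among genes with a mean of at least 5, a filter that drops Stap1. Tmprss11e over both days lay between -1.28 and 0.17 leaving out 1 array, and turned to 0.17 without the wild-type day 0 array and to 0.17 without the arrays with Xist signal. Tmprss11f turned to 0.93 without those arrays and to 1.06 with Xist signal as a term over both days, to 1.72 with that term at day 0, and its difference in day change to -0.80 with that term, with a range of -0.80 to 2.24 leaving out 1 array (-0.80 without wild-type day 6 replicate 2). The cause was not tested. Day changes of the members kept their sign, except that of Tmprss2 (0.12 without the wild-type day 0 array or without both arrays with Xist signal), and that of Tmprss4 was 0.85 under the same settings. That of Tmprss11f was -1.06 without wild-type day 6 replicate 2 or with Xist signal as a term. Counts over all genes that moved by over 1.5 times were, for day over both genotypes, 727 to 3251 leaving out 1 array and 4027 without the arrays with Xist signal, against 2286. They were, for day 0, 1239 to 4328 leaving out 1 array and 682 with Xist signal as a term, against 2869. They were 143 to 1038, against 619, for the difference in day change leaving out 1 array. For day within knockout they were 1381 to 4027, against 3251, and within wild type 1040 to 2209, against 1418, leaving out 1 array. For genotype over both days and at day 6 they were up to 836 and 43 without wild-type day 6 replicate 2, against 0, and at day 6 also 1 with trend and robust variances and 1 with all probe sets.

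For a pairing by replicate number, the deviations of replicate 1 correlated across genes at 0.23 between the day 6 groups, and at 0.09 and 0.04 between the day 0 knockouts and the day 6 knockouts and wild types. As the labels name nothing shared and not every pair was over 0.1, the numbers were not taken as pairs; what the day 6 arrays of one number share was not tested. With a replicate block 0 of the 8 genes were called at day 6, 2 at day 0 and 2 for the difference in day change, and 6 related genes were called higher at day 6. Groups of 1 and 2 arrays limit all of these comparisons, and values within the floor range give no exact fold.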

Other observations

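Among the related genes, 7 of 30 were called between genotypes at day 0, against 14.4% of all genes, with 4 higher and 3 lower in knockout. The 4 higher were Mst1r, Plau (1.52, limma adjusted p = 0.0461), Plaur (1.47, 0.0421) and Met (1.07, 0.0374), and the 3 lower were Corin, Scnn1b (-1.26, 0.00954) and Tmprss7 (-0.85, 0.0361, with values of 3.72 to 4.62 that lay within the floor range). The calls of Corin and Mst1r held in 13 of 13 alternatives. The others were lost in 8 of 13 for Plau, 8 of 13 for Met, 5 of 13 for Plaur, 2 of 13 for Scnn1b and 7 of 12 for Tmprss7. Corin, a membrane protease also known from the dermal papilla of the hair follicle, had 4.84 and 4.79 in knockout and 7.76 in wild type (limma adjusted p = 0.00619). Its day 6 values were 5.25 and 5.05 in the knockouts and 6.06 and 5.01 in the wild types, with the higher wild-type value on the array with Xist signal and the higher hair follicle marker mean. All Corin values but that of the wild-type day 0 array lay within the floor range. Mst1r, the receptor of macrophage-stimulating protein, went the other way, with 8.31 and 8.56 in the knockouts and 6.09 in the wild type on day 0 (adjusted p = 0.00273). At day 6 it had 8.44 and 8.88 in the knockouts and 8.81 and 8.77 in the wild types. The day change differed between genotypes for 2 of the 30 genes, against 3.1% of all genes. For Mst1r it was lower in knockout, by a difference of -2.48 (adjusted p = 0.0137), and the call was lost without knockout day 6 replicate 1 (adjusted p = 0.0511) among 13 alternatives. For Scnn1b it was higher in knockout, by 1.32 (adjusted p = 0.0434), a call lost in 11 of 13 alternatives, with adjusted p of up to 0.159. At day 6, 0 of the 30 genes were called between genotypes, as were 0 of all genes. The part of the markers on the wild-type day 0 array in these values was not tested.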
